A study of Mus musculus with 104 samples.

Results

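The 39 genes described here are mouse interferon-stimulated genes, genes whose transcription rises when a cell senses interferon. They were chosen by symbol out of the 24940 genes in each of 8 deposited tables of TPM (transcript abundance scaled for gene length and library depth), and all 39 were listed in all 8 tables. By role they are Irf7, Irf9, Stat2 and Sp100 (control of transcription), Ifih1, Ddx58, Dhx58, Zbp1 and Eif2ak2 (sensors of foreign RNA and DNA), Oas1a, Oas2, Oas3, Oasl1 and Oasl2 (the oligoadenylate synthetase or OAS family), Ifit1, Ifit2 and Ifit3 (the IFIT family), Ifitm3, Bst2, Mx1, Mx2, Rsad2, Cmpk2, Trim30a and Isg20 (virus restriction), Ifi47, Irgm1, Igtp and Iigp1 (immunity-related GTPases), Isg15, Usp18 and Herc6 (conjugation of the ubiquitin-like protein ISG15), and Ifi35, Ifi44, Rtp4, Xaf1, Parp14, Phf11b and Samd9l.

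Type I interferons bind the receptor chains IFNAR1 and IFNAR2, whose kinases switch on a transcription factor complex that holds STAT2 and IRF9 and binds interferon-stimulated response elements (ISREs) in promoters. IRF7 is itself induced in this way and drives further interferon transcription. Macrophages both produce and answer interferons, and many keep some of these genes on without infection. Kupffer cells are the resident macrophages of the liver sinusoids, and when they are killed, blood monocytes enter the liver and take their place.

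Members moved together in several of the comparisons below, so promoter stretches are shown for the 6 members that hold ISRE-like letters among the 11 that had a RefSeq promoter and were called in 6 or more comparisons. The search covered RefSeq promoters of build GRCm38.p6, from 250 bases before to 50 after a gene's start, for the core GAAANNGAA of the ISRE and for TTCNNNGAA, the letters of the GAS (gamma-activated site) element, on both strands. Of the 39 genes, 30 matched a promoter, and 18 of these (60.0%) held the ISRE core, against 9.76% of 27025 genes with a promoter. The GAS letters were in 8 of the 30 (26.67%), against 9.55% of genes, and in Ifitm3 and Bst2 a GAS match overlapped an ISRE match. The stretches lie on the reverse strand for Ifitm3 (chr7:141010715-141010762), Isg15 (chr4:156200856-156200916), Ifi44 (chr3:151749885-151749933) and Oas3 (chr5:120777700-120777754), and on the forward strand for Ifit1 (chr19:34640760-34640833) and Ifit3 (chr19:34583354-34583455). Each is written 5′ to 3′ along the gene, with the ISRE core or its reverse complement in capitals.
Ifitm3: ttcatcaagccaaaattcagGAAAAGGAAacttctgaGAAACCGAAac
Isg15: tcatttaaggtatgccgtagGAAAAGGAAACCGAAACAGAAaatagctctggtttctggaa
Ifi44: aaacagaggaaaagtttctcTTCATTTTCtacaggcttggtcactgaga
Ifit1: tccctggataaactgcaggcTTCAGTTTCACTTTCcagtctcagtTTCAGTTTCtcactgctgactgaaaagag
Ifit3: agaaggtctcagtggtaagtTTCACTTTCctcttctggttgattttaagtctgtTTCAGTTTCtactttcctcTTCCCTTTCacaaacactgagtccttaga
Oas3: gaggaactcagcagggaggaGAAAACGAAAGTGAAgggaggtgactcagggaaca
The matches in Ifitm3 lay within 30 bases after the start and the single match in Ifi44 across it, whereas those in Isg15, Ifit1, Ifit3 and Oas3 lay upstream. A match is a run of letters and was not tested for binding. The 11 were chosen by calls in the comparisons below, so their calls there are no test of the letters. The windows of the other 5 of those 11, Irf7, Cmpk2, Ifi47, Oasl2 and Ifit2, held no ISRE core, which says only that these letters are not in them, and 1 of the 2 windows of Ifit2 held the GAS letters. For Ifi47 the window began at chr11:49076337, apart from the transcript measured, which starts at 49087017, so bases just before that start were not searched.

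The study followed macrophages that repopulate an emptied liver and tested Notch ligand, TGF-beta and liver X receptor (LXR) signals in culture, by polyA RNA-seq. In the liver time course, macrophages of Clec4f-cre/Rosa26iDTR mice were sorted 12, 24, 48, 72, 168 and 336 h after diphtheria toxin (2, 3, 2, 2, 3 and 3 libraries), which kills cells that have expressed the Kupffer cell gene Clec4f. They were set against blood Ly6C high monocytes of untreated C57BL/6J mice (4 libraries, 1 of them labelled a pool) and Kupffer cells of Clec4f-cre/Rosa26iDTR mice given PBS for 72 h (3 libraries). Notch signals in the liver were blocked with LY411575, a gamma-secretase inhibitor (3 libraries), or with DLL1 and DLL4 antibodies, which block 2 Notch ligands (4 libraries), in macrophages sorted 24 h after toxin, each set against its own 2 control libraries that also had the toxin. Groups given here without a number had 2 libraries.

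Clec4f-cre is active in Kupffer cells, and TIM4 is a surface receptor of long-resident Kupffer cells. The deletions were Nr1h3 (LXR alpha) in TIM4-positive and TIM4-negative Kupffer cells of Nr1h3 flox/flox Clec4f-cre +/- mice against Nr1h3 flox/flox Kupffer cells, Nr1h3 knockout against wild-type bone marrow-derived macrophages (BMDMs, 7 day cultures), and Smad4, the shared partner of the SMADs that TGF-beta activates, in TIM4-positive (3 libraries) and TIM4-negative Kupffer cells of Smad4 flox/flox Clec4f-cre +/- mice against Smad4 flox/flox Kupffer cells. By their titles the Nr1h3 control Kupffer cells were TIM4-positive, and the Smad4 control titles name TIM4 without a sign. Where controls were TIM4-positive, genotype label and TIM4 fraction differ together in the TIM4-negative comparison and cannot be told apart. Smad4 knockout and Smad4 flox/flox control BMDMs (4 day cultures) had TGF-beta, DLL4, DLL4 with DAPT (a gamma-secretase inhibitor), DLL4 with TGF-beta, or no treatment, for 24 h. C57BL/6J BMDMs had DLL4, DLL4 with TGF-beta, DLL4 with TGF-beta and DMHCA, or no treatment, for 24 h (4 day cultures) or 72 h (6 day cultures), and DMHCA alone for 24 h. DMHCA is a synthetic sterol agonist of LXR, and desmosterol is a natural one. C57BL/6J bone marrow monocytes (2 day cultures) had DLL4, TGF-beta with DLL4, desmosterol, all 3, or no treatment, for 48 h. Untreated C57BL/6J liver cells were sorted by STAB2, a receptor of sinusoidal endothelium, into STAB2-low, STAB2-intermediate and STAB2-high cells.

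Several labels disagreed. The Smad4 knockout BMDMs carry a Clec4f-cre label where the series design names LysM-cre, and the treated 72 h C57BL/6J cultures carry 24 h treatment labels under titles of 72 h; the titles were followed. The control libraries of both Notch blockades also carry the inhibitor or antibody in a label, and their strain label is C57BL/6J where the design names Clec4f-Cre/DTR mice. By the column names the LY411575 mice were female and the antibody mice male, and all mice of both experiments were fasted, which the other liver libraries' names do not say. The column names of the bone marrow monocyte libraries read male and BMDM, where their titles name bone marrow monocytes, and the titles were followed. The 2 libraries of each STAB2 fraction carry the same 2 numbers in all 3 fractions (Stab2Low_210 and Stab2Low_317 among them), and 1 number is in both Smad4 knockout Kupffer cell fractions (smadKOt4p_716); no label says whether a shared number is 1 mouse. Nothing else in the labels ties each library to its own animal or culture, so p-values measure the spread between libraries. The files held whole reads of 7830297 to 27776806 per library.

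Each table was fitted on its own with limma on log2(TPM + 1), over genes at 4 TPM or more in at least 2 of its libraries, and a gene was called at a Benjamini-Hochberg adjusted p below 0.05 over all genes tested and a fitted change of 2-fold or more. Differences below are on that log2 scale with their standard error, and understate the change of low genes. Levels are TPM, a value per length, with SD. A few members outside the rule for named genes, and all genes outside the 39, are named after their values were seen. The filter kept 34 to 39 of the 39 genes, depending on the table. For each comparison the share of all tested genes that was called stands beside the members' count, and the chart of called members sets both side by side.

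**Figure D1:**
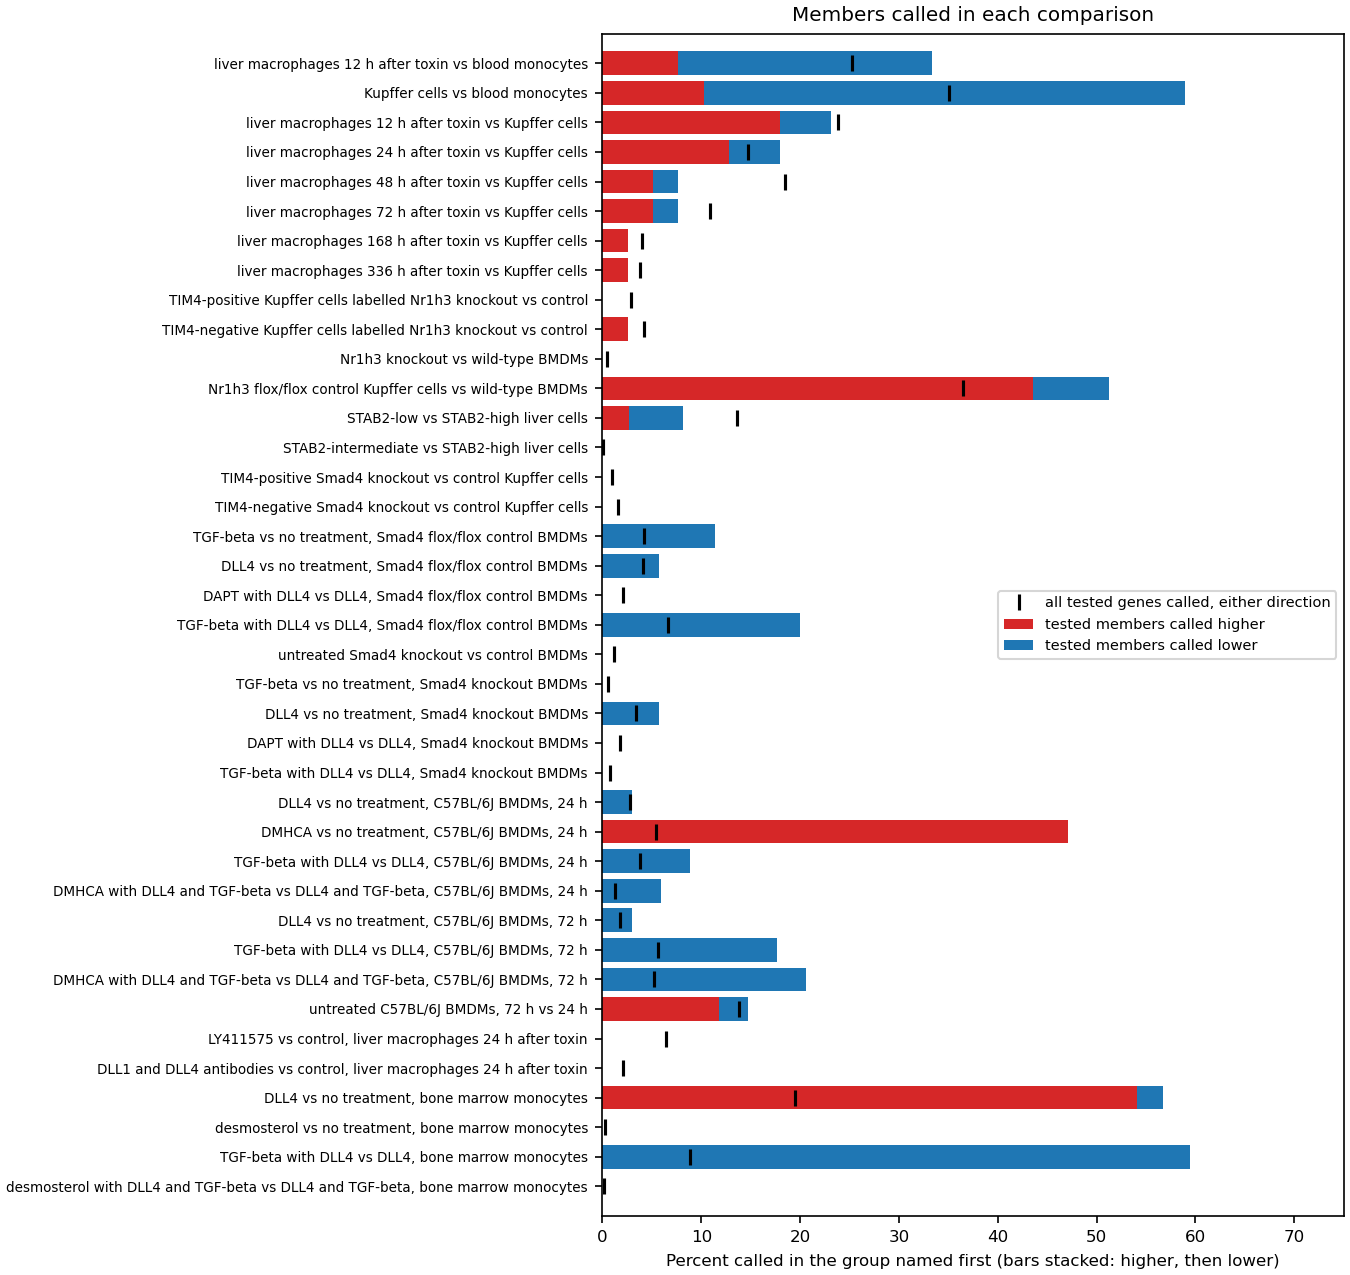
Bars give the percent of tested members called higher (red) and lower (blue) in the group named first, stacked along the x axis; black ticks give the percent of all tested genes called in the same comparison. The longest bars belong to bone marrow monocytes, DMHCA at 24 h and the comparisons of Kupffer cells with monocytes and with BMDMs.

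The median member stood at 23.8 to 32.4 TPM in STAB2-sorted liver cells, at 28.2 to 36.5 TPM in Kupffer cells given PBS and at 44.1 to 84.3 TPM in blood monocytes. In cultures without treatment it was 20.3 to 22.0 TPM in Smad4 flox/flox BMDMs, 11.0 to 11.1 TPM in bone marrow monocytes and 7.90 to 8.13 TPM in C57BL/6J BMDMs at 24 h, and it was lowest among the 47 groups, at 2.31 and 2.45 TPM, in C57BL/6J BMDMs with DLL4, TGF-beta and DMHCA for 72 h. These tables were quantified separately, so the levels are set side by side without a test. Ifitm3, a membrane protein that blocks entry of enveloped viruses, was the highest member in 87 of 104 libraries, Bst2 (tetherin, which holds budding virions at the cell surface) in 14, Trim30a in 2 and Irf7 in 1.

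Blood monocytes had the highest mean of the 47 groups for 18 of the 39 genes, among them Ifitm3 (2207 ± 285 TPM), Sp100, Mx1 (105.7 ± 38.2 TPM), Stat2 (126 ± 36.7 TPM), Usp18 (48.8 ± 20.5 TPM) and Irgm1 (129.6 ± 59.8 TPM, SD, n = 4). BMDMs with DLL4, TGF-beta and DMHCA for 72 h had the lowest mean for 25 of the 39, such as Ifit1 (0.216 ± 0.0516 TPM), Irf7 (2.17 ± 1.28 TPM) and Isg15 (1.21 ± 0.376 TPM, SD, n = 2). Other members peaked elsewhere. Irf7 was highest in Nr1h3 flox/flox Kupffer cells (701 ± 219 TPM), Bst2 in wild-type BMDMs (511 ± 20.3 TPM), Isg15 in the control macrophages of the LY411575 experiment (83.9 ± 4.86 TPM), and Ifit1, Rsad2 and Oas1a in the LY411575 macrophages (36.2 ± 0.343, 69.8 ± 4.76 and 92.7 ± 1.82 TPM). Ifi44 was highest in STAB2-high liver cells (58.7 ± 0.752 TPM) and Iigp1 in STAB2-low liver cells (115 ± 29.3 TPM), and Ifitm3 was lowest in bone marrow monocytes with DLL4, TGF-beta and desmosterol (24.7 ± 0.148 TPM). The 18 genes highest in blood monocytes thus include transcription factors, sensors and restriction factors, whereas no IFIT gene is among them.

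Members also differed together between libraries of 1 group. In blood monocytes, library 6a10 was the highest of 4 for 33 of the 39 genes, and the median spread between the highest and lowest library was 1.03 on the log2 scale, against 0.38 over all genes tested. One library was the highest for all 39 genes in the 48 h liver macrophages (RLM048h_153) and in the Nr1h3 flox/flox control Kupffer cells (replicate 1, with a spread of 0.61 against 0.13 over all genes). Library RLM168h_568 was the highest of 3 for 36 of 39 genes at 168 h, KCctr_166 for 32 of 39 in Kupffer cells, and replicate 2 for all 35 tested genes in Smad4 knockout BMDMs with DLL4 and TGF-beta. The deleted genes were checked by their exon levels. Smad4 was at 13.7 to 21.5 TPM in Smad4 knockout and 33.4 to 35.7 TPM in control Kupffer cells, and at 8.52 to 11.3 TPM in knockout and 20.4 to 26.5 TPM in control BMDMs. Nr1h3 was at 8.05 and 8.81 TPM in knockout and 41.9 and 43.3 TPM in wild-type BMDMs. In Kupffer cells it was at 341 to 422 TPM in the 4 libraries labelled knockout and 409 and 393 TPM in the controls, so those labels are not borne out by the total exon level, which a deletion of part of the gene need not lower.

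More members were lower than higher in Kupffer cells relative to blood monocytes. Of 39 tested genes, 4 were higher and 19 lower in Kupffer cells than in blood monocytes, where 35.1% of all genes were called, and the median log2 difference was -0.95 over the 39 genes and 0.01 over all 24940. The 8 largest decreases were Ifi47, Mx1, Ifit1, Sp100, Zbp1, Cmpk2, Mx2 and Irgm1, and the 4 higher members were Iigp1, Bst2, Ifi44 and Irf7. Tissue, genotype label and PBS treatment differ together between these groups and cannot be told apart.

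Mx1, a gene of the dynamin-like GTPase family, stood at 17.2, 17.7 and 31.1 TPM in the Kupffer cells, against 65.0, 88.6, 154 and 115 TPM in the monocytes, a difference of -2.19 ± 0.27, adjusted p = 7.5e-07. Ifit1, which binds foreign RNA 5′ ends, was at 5.57, 4.13 and 4.88 TPM in the Kupffer cells, against 19.5, 17.2, 46.3 and 23.4 TPM in the monocytes (-2.14 ± 0.27, adjusted p = 1.0e-06). All Kupffer cell libraries were below all monocyte libraries for both genes, and the monocyte library 6a10 was the highest. Ifi47, an interferon-inducible GTPase, averaged 27.4 ± 0.695 TPM in Kupffer cells and 156 ± 86.5 TPM in monocytes (SD, n = 3 and 4), and Sp100, a nuclear body protein, averaged 79.7 ± 23.5 TPM in Kupffer cells and 316.9 ± 38.8 TPM in monocytes.

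Iigp1, a GTPase that attacks the vacuoles of intracellular parasites, was near absent in monocytes and higher in Kupffer cells, at 21.1, 24.1 and 24.8 TPM in the Kupffer cells, against 0.183, 0.389, 1.41 and 0.239 TPM in the monocytes (4.03 ± 0.33, adjusted p = 5.0e-09). Irf7, the inducible regulator of interferon genes, was at 574, 487 and 566.8 TPM in the Kupffer cells, against 160.0, 236, 328 and 261 TPM in the monocytes (1.18 ± 0.22, adjusted p = 1.2e-04), and its groups did not overlap. Bst2 averaged 200.2 ± 7.88 TPM in Kupffer cells and 72.4 ± 19.8 TPM in monocytes (1.50 ± 0.20, adjusted p = 2.0e-06). Ifi44 averaged 6.19 ± 1.38 TPM in Kupffer cells and 1.86 ± 1.07 TPM in monocytes (1.41 ± 0.35, adjusted p = 0.0014).

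By role, 6 of 8 virus restriction genes, 3 of 4 immunity-related GTPases, 2 of 5 sensors and 2 of 5 OAS genes were lower in Kupffer cells, and none of the 3 ISG15 conjugation genes was called. Ifitm3 itself averaged 1087 ± 224 TPM in Kupffer cells and 2207 ± 285 TPM in monocytes (-1.03 ± 0.14, adjusted p = 3.4e-06). Of 27 tested interferon signalling genes, 3 were higher and 12 lower in Kupffer cells, and of 45 other interferon-stimulated genes 7 were higher and 15 lower. Among the endosomal receptor genes, Tlr9, a sensor of DNA, averaged 22.3 ± 4.06 TPM in Kupffer cells and 107 ± 25.2 TPM in monocytes (-2.19 ± 0.20, adjusted p = 1.5e-08), and Tlr3, a sensor of double-stranded RNA, averaged 14.1 ± 3.54 TPM in Kupffer cells and 2.63 ± 1.22 TPM in monocytes (2.09 ± 0.22, adjusted p = 1.2e-07).

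Markers of other cells moved in the same comparison. All 5 sinusoidal endothelium markers and all 4 hepatocyte markers were higher in Kupffer cells, where their summed levels were 347 to 388 TPM and 329 to 4041 TPM, against 3.69 to 5.69 TPM and 0 to 0.369 TPM in monocytes (Ttr and Serpina1c at 0). The 5 T and NK cell markers were higher too, at 9.47 to 65.6 TPM in Kupffer cells and 0.278 to 1.56 TPM in monocytes, while the 3 erythroid markers were lower, at 18.6 to 94.9 TPM in Kupffer cells and 1108 to 4461 TPM in monocytes. Their part in the members' differences was not tested. In bulk samples such as these, fewer cells of a type and less RNA per cell cannot be told apart.

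At the first time point after toxin, part of the set was also below blood monocytes. In liver macrophages 12 h after toxin, 3 members were higher and 10 lower than in blood monocytes (background 25.2% of all genes), with a median log2 difference of -0.69 over the 39 genes and 0.00 over all 24940. The higher members were Iigp1 (1.80), Bst2 (1.47) and Isg15 (1.03), and the lower ones included Irgm1 (-1.68), Samd9l (-1.61), Cmpk2 (-1.56), Mx2 (-1.38), Ifi47 (-1.27), Irf9 (-1.21), Sp100 (-1.17) and Eif2ak2 (-1.12), with adjusted p-values from 6.5e-07 to 0.017. Irf9 and Stat2 encode parts of the ISRE-binding complex: Irf9 averaged 51.6 ± 1.18 TPM in the 12 h macrophages and 121 ± 11.8 TPM in monocytes, and Stat2 56.7 ± 1.71 TPM in the 12 h macrophages and 126 ± 36.7 TPM in monocytes. The 4 hepatocyte markers rose as well, to 293 to 1149.7 TPM in the 12 h macrophages, against 0 to 0.369 TPM in monocytes, and their part was not tested. Tissue, genotype label and toxin also differ together between these groups and cannot be told apart.

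Against the Kupffer cells they come to replace, the repopulating macrophages differed in 9 members at 12 h and in 1 at 336 h. At 12 h 7 members were higher and 2 lower (background 23.8%). The 24 h macrophages had 5 higher and 2 lower (14.7%), the 48 h ones 2 higher and 1 lower (18.5%) and the 72 h ones 2 higher and 1 lower (10.9%). The 168 h macrophages had 1 higher and 0 lower (3.99%), as did the 336 h ones (3.82%). The shares of members called were close to or below those backgrounds. The medians over the 39 genes were 0.33, 0.17, 0.17, 0.32, 0.45 and 0.24 over the 6 times, against values between -0.03 and 0.00 over all 24940 genes. Called or under 2-fold, 13, 10, 8, 11, 8 and 3 members passed the adjusted p upward over the 6 times. Downward it was passed by 3, 6, 1, 1, 0 and 1. The 6 comparisons share the same 3 Kupffer cell libraries. Without Kupffer cell library KCctr_31 the 24 h total fell to 4 members, without KCctr_166 the totals at 48 and 72 h rose to 5 and that at 168 h to 2, without RLM048h_159 the 48 h total rose to 5, and without RLM168h_568 the 168 h total rose to 2.

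Isg15, the ubiquitin-like modifier, stood above Kupffer cells early. The 12 h libraries had 53.0 and 68.8 TPM, the 24 h libraries 41.5, 57.7 and 64.4 TPM, the 48 h libraries 40.9 and 73.6 TPM and the 72 h libraries 52.8 and 46.7 TPM. The 168 h libraries had 15.9, 19.2 and 28.4 TPM and the 336 h libraries 16.6, 22.0 and 18.5 TPM, against 15.6, 14.6 and 17.1 TPM in Kupffer cells, so every library up to 72 h was above every Kupffer cell library. The differences were 1.88 ± 0.37, 1.71 ± 0.33, 1.74 ± 0.37 and 1.60 ± 0.37 over the first 4 times (adjusted p = 3.1e-04, 3.4e-04, 7.9e-04 and 0.0024), and it was not called at 168 or 336 h. Mx1 was higher at 12 and 24 h (1.46 and 1.30), as was Ifi47 (1.05 and 1.17). Ifi35 was higher at 12, 24 and 48 h (1.07, 1.04 and 1.10). Ifit1 (1.25), Isg20 (1.16) and Zbp1 (1.02) were called only at 12 h, Oasl2 (1.01) only at 24 h and Dhx58 (1.07), a sensor related to RIG-I, only at 72 h among these 6 comparisons; whether the times differ from each other was not tested.

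Iigp1 was below Kupffer cells until 72 h, and Ifi44 was below them at 24 h and above them from 168 h. For Iigp1 the 12 h libraries had 6.45 and 2.60 TPM, the 24 h libraries 5.14, 4.96 and 5.47 TPM, the 48 h libraries 1.93 and 6.62 TPM and the 72 h libraries 14.0 and 5.22 TPM. The 168 h libraries had 26.3, 31.3 and 31.9 TPM and the 336 h libraries 24.7, 36.2 and 31.3 TPM, against 21.1, 24.1 and 24.8 TPM in Kupffer cells. It was lower than in Kupffer cells at 12, 24, 48 and 72 h (-2.23, -1.97, -2.36 and -1.33) and not called later. Ifi44 had 1.70, 2.51 and 3.55 TPM in the 24 h libraries, all below every Kupffer cell library (-1.02 ± 0.37, adjusted p = 0.030). It had 18.5, 23.8 and 27.3 TPM in the 168 h libraries and 17.4, 22.0 and 19.0 TPM in the 336 h libraries, against 6.47, 4.68 and 7.40 TPM in Kupffer cells, so every library at these times was above every Kupffer cell library (1.75 ± 0.37, adjusted p = 0.0028 and 1.52 ± 0.37, adjusted p = 0.0081). No other member was called by limma at either time. Irf7 was lower than in Kupffer cells at 12 h (214 ± 50.5 TPM in the macrophages and 543 ± 47.9 TPM in Kupffer cells, -1.35 ± 0.26, adjusted p = 2.9e-04).

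**Figure D2:**
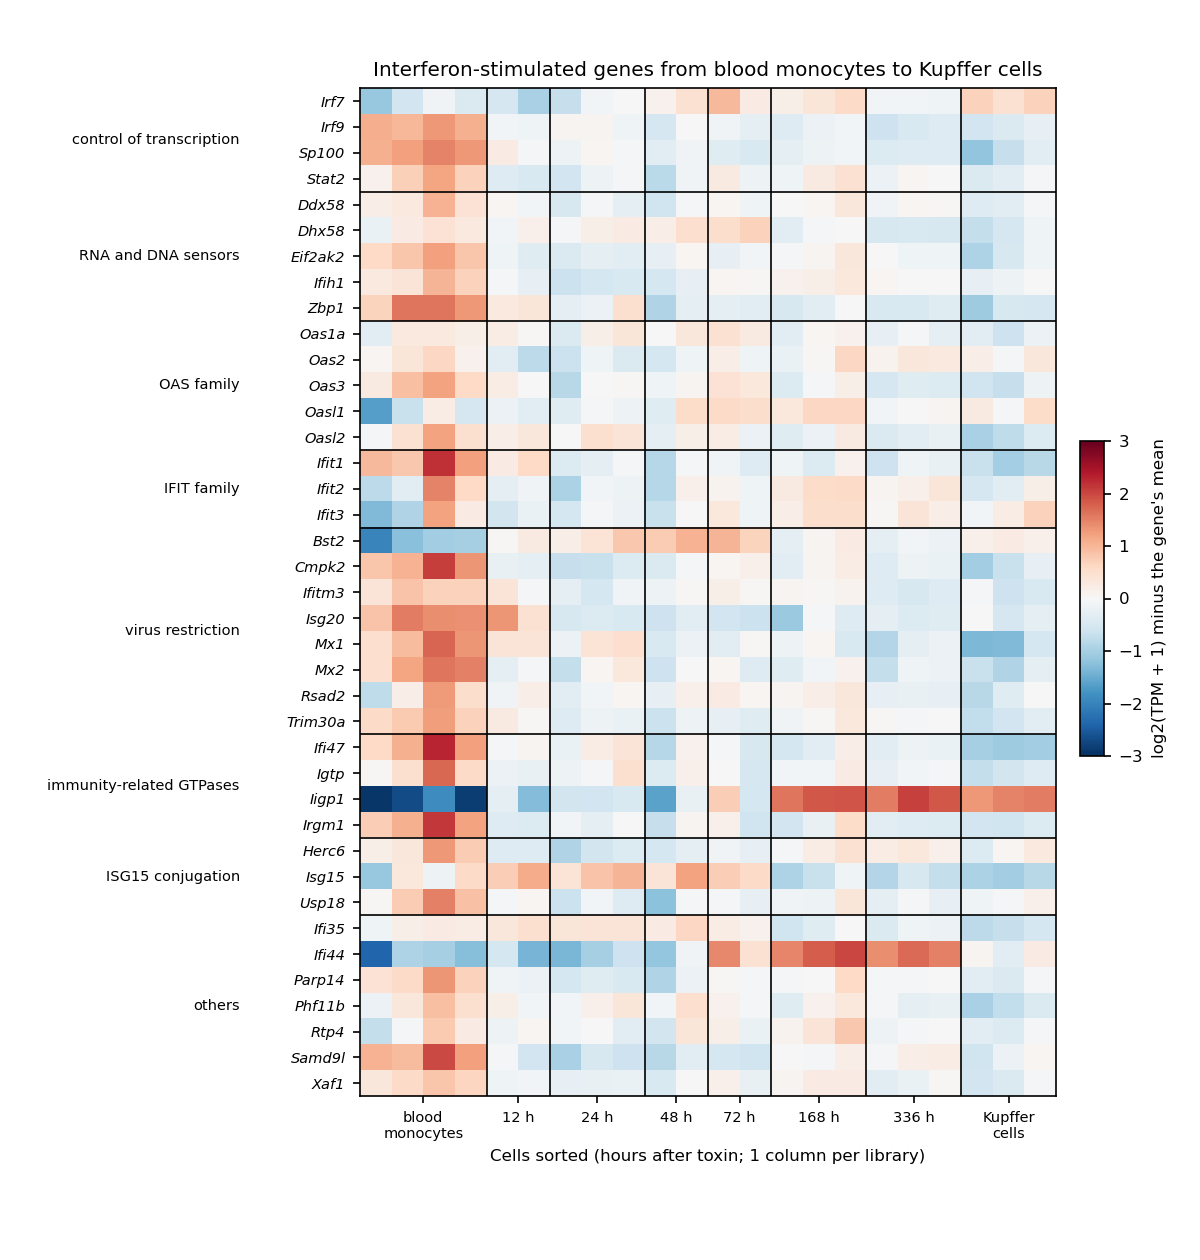
Each column is 1 library, from 4 blood monocyte libraries through liver macrophages 12 to 336 h after toxin to 3 Kupffer cell libraries, each row is 1 of the 39 genes by role, and colour is log2(TPM + 1) minus the gene's mean. Most rows are darkest red in monocytes, in library 6a10 above all, while Iigp1 and Ifi44 turn red at 168 and 336 h and Isg15 is red at 12 to 72 h.

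Set against cultured macrophages, Kupffer cells had more members higher than lower. In Nr1h3 flox/flox control Kupffer cells 17 members were higher and 3 lower than in wild-type BMDMs, where 36.5% of all genes were called, and the median log2 difference was 0.72 over the 39 genes and 0.04 over all 24940. The 8 largest increases were Iigp1, Irf7, Oasl1, Mx1, Oas2, Ifi44, Ifit2 and Ifi47. Irf7 was at 856 and 547 TPM in the Kupffer cells, against 71.2 and 79.3 TPM in the BMDMs (3.17 ± 0.18, adjusted p = 4.1e-07), and Iigp1 at 59.2 and 37.7 TPM in the Kupffer cells, against 0.225 and 0.288 TPM in the BMDMs (5.26 ± 0.18, adjusted p = 1.9e-08). Mx1 averaged 21.4 ± 10.2 TPM in Kupffer cells and 2.16 ± 0.0424 TPM in BMDMs (2.75 ± 0.25, adjusted p = 8.0e-06), and Oasl1, an OAS-like protein, 47.2 ± 23.1 TPM in Kupffer cells and 5.31 ± 0.00919 TPM in BMDMs (2.84 ± 0.26, adjusted p = 9.9e-06). The groups did not overlap for these 4 genes, and Kupffer cell replicate 1 was the higher of the pair for each. The other 9 higher members ranged from 1.06 (Sp100) to 1.52 (Phf11b), and included Stat2 (1.14 ± 0.16, adjusted p = 1.7e-04) and Ifit3 (1.23 ± 0.22, adjusted p = 7.5e-04).

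Isg15, Ifit1 and Bst2 were lower in Kupffer cells. Isg15 was at 26.5 and 10.5 TPM in the Kupffer cells, against 62.8 and 68.9 TPM in the BMDMs (-1.91 ± 0.32, adjusted p = 5.1e-04), Ifit1 differed by -1.40 ± 0.24, adjusted p = 6.4e-04, and Bst2 averaged 199 ± 71.6 TPM in Kupffer cells and 511 ± 20.3 TPM in BMDMs (-1.40 ± 0.20, adjusted p = 1.7e-04). Of 27 tested signalling genes 11 were higher and 1 (Socs1, an inhibitor of the kinases) lower in Kupffer cells, and of 44 other interferon-stimulated genes 22 were higher and 0 lower. The 4 hepatocyte markers summed to 179 to 642 TPM in Kupffer cells and were all at 0 in BMDMs, and 4 of 5 sinusoidal endothelium markers were higher, at a sum of 200.1 to 215 TPM in Kupffer cells and 9.81 to 10.3 TPM in BMDMs (Clec4g at 0). Their part was not tested, and culture, tissue and genotype label differ together between these groups and cannot be told apart.

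Bone marrow monocytes raised much of the set in response to the Notch ligand DLL4. After 48 h, 20 of 37 tested members were higher and 1 lower with DLL4 than without treatment, where 19.5% of all genes were called, and the median log2 difference was 1.22 over the 39 genes and 0.00 over all 24940. All 3 IFIT genes, all 3 ISG15 conjugation genes, 4 of 5 sensors, 4 of 7 tested virus restriction genes and 2 of 4 control genes rose. The 8 largest increases were Ifit3, Oasl1, Ifit2, Irf7, Isg15, Zbp1, Mx1 and Ifi44. The other 12 raised members ranged from 1.02 (Herc6) to 2.49 (Ifit1), and Oas2 was the 1 member that fell. Of the 6 genes whose promoter stretches are shown, Isg15, Ifi44, Ifit1 and Ifit3 rose, while Ifitm3 (-0.75) and Oas3 (0.21) were not called. Of the genes chosen by the same calls with no ISRE core in the windows searched, Irf7, Ifit2, Cmpk2 and Ifi47 rose and Oasl2 was not called.

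Ifit3 was at 35.3 and 32.7 TPM in the DLL4 cultures, against 1.87 and 2.42 TPM in the untreated cultures (3.48 ± 0.15, adjusted p = 2.8e-08). Irf7 was at 162 and 147 TPM in the DLL4 cultures, against 26.5 and 20.1 TPM in the untreated cultures (2.69 ± 0.14, adjusted p = 9.2e-08), and Isg15 at 38.0 and 37.1 TPM in the DLL4 cultures, against 4.03 and 6.65 TPM in the untreated cultures (2.64 ± 0.21, adjusted p = 2.1e-06). Each DLL4 library was several times above each untreated library for these 3 genes, with no overlap. Rsad2 (1.80 ± 0.10, adjusted p = 1.9e-07), Usp18 (1.59 ± 0.14, adjusted p = 5.9e-06) and Mx1 (2.57 ± 0.18, adjusted p = 9.7e-07) rose as well. Stat2 averaged 50.6 ± 1.65 TPM with DLL4 and 20.1 ± 1.31 TPM without (1.29 ± 0.06, adjusted p = 2.8e-08). Zbp1, a sensor of Z-form nucleic acids, averaged 32.9 ± 0.0205 TPM with DLL4 and 4.53 ± 0.956 TPM without (2.63 ± 0.12, adjusted p = 3.4e-08).

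Of the 37 tested members 16 were not called and 1 was called lower. Of the 16, 11 passed the adjusted p upward and 3 downward, under 2-fold, and 2 did not pass it, Oas1a (-0.03 ± 0.08, adjusted p = 0.74) and Rtp4 (-0.10 ± 0.15, adjusted p = 0.57). The member called lower was Oas2, which makes the oligoadenylates that activate RNase L. It was at 10.3 and 8.33 TPM in the DLL4 cultures, against 25.4 and 22.1 TPM in the untreated cultures (-1.27 ± 0.13, adjusted p = 1.1e-05), and its groups did not overlap. Ifitm3 had 156 and 147 TPM in the DLL4 cultures, against 251 and 259 TPM in the untreated cultures, a difference of -0.75 ± 0.07, adjusted p = 7.4e-06, under 2-fold and so not called. Bst2 averaged 77.1 ± 3.45 TPM with DLL4 and 63.3 ± 3.38 TPM without (0.28 ± 0.06, adjusted p = 0.0027), also not called.

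Genes of the interferon pathway moved with the set. Of 27 tested signalling genes 10 rose and 0 fell with DLL4, and of 38 other interferon-stimulated genes 21 rose and 0 fell. Irf1, a transcription factor of the same family as Irf7, averaged 184 ± 0.288 TPM with DLL4 and 26.7 ± 1.72 TPM without (2.74 ± 0.05, adjusted p = 9.3e-11), and Tlr9 116 ± 3.09 TPM with and 9.90 ± 0.396 TPM without (3.43 ± 0.05, adjusted p = 1.1e-11). The interferon gene Ifnb1 averaged 0.171 ± 0.0742 TPM with DLL4 and was listed at 0 in both untreated libraries, below the expression filter and not tested. Monocyte markers fell in the same cultures, 4 of 4 tested, to a sum of 79.0 to 81.1 TPM with DLL4, against 291 to 311 TPM without, 2 of 3 tested neutrophil markers (Ngp and S100a8) rose, to 38.2 to 45.1 TPM with DLL4, against 15.1 to 16.1 TPM without (Ly6g and Retnlg at 0), and their part was not tested.

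Added to DLL4, TGF-beta lowered much of the set. Of 37 tested members 0 were higher and 22 lower with DLL4 and TGF-beta than with DLL4 alone, where 8.81% of all genes were called, and the median log2 difference was -1.14 over the 39 genes and -0.03 over all 24940. All 3 IFIT genes, all 3 ISG15 conjugation genes and 5 of 7 tested virus restriction genes fell, against 1 of 4 control genes and 2 of 5 sensors. The 8 largest decreases were Rtp4, Oas2, Ifit3, Phf11b, Ifitm3, Irf7, Cmpk2 and Mx1. The other 14 ranged from -1.83 (Rsad2) to -1.03 (Herc6), with Isg15 at -1.30 ± 0.21, adjusted p = 6.1e-04 and Oas1a at -1.14 ± 0.08, adjusted p = 2.7e-06. All 6 genes with promoter stretches shown were among the 22. So were Irf7, Cmpk2, Ifit2 and Ifi47, chosen by the same calls, with no ISRE core in the windows searched. Oasl2, also with none there, was not called. This comparison shares its DLL4 libraries with that against no treatment, so the values of both are given side by side and not related to each other.

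Irf7 was at 37.2 and 35.7 TPM in the cultures with DLL4 and TGF-beta, against 162 and 147 TPM in the cultures with DLL4 (-2.05 ± 0.14, adjusted p = 1.6e-06). Rsad2 (viperin, an antiviral enzyme) was at 4.44 and 4.94 TPM with DLL4 and TGF-beta, 20.5 and 18.1 TPM with DLL4 and 4.47 and 5.21 TPM without treatment. The DLL4 and TGF-beta libraries stood close to or within the range of the untreated ones for Rsad2 and above them for Irf7. Ifitm3 fell to 34.2 and 36.9 TPM with DLL4 and TGF-beta, against 156 and 147 TPM with DLL4 (-2.06 ± 0.07, adjusted p = 1.7e-08). Oas2 fell to 1.09 and 0.914 TPM, against 10.3 and 8.33 TPM with DLL4 (-2.36 ± 0.13, adjusted p = 3.4e-07). Both genes were then below all untreated libraries, which had 251 and 259 TPM of Ifitm3 and 25.4 and 22.1 TPM of Oas2.

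Oasl1, named here after its values were seen, was not among them, at 38.1 and 39.2 TPM in the cultures with DLL4 and TGF-beta, against 36.4 and 34.6 TPM in the cultures with DLL4 (0.12 ± 0.07, adjusted p = 0.17). Stat2 averaged 44.5 ± 1.19 TPM with both factors and 50.6 ± 1.65 TPM with DLL4 (-0.18 ± 0.06, adjusted p = 0.021), not called. Among signalling genes 0 of 27 rose and 1 fell with TGF-beta, Ikbke, a kinase that activates IRF3 and IRF7, which averaged 1.25 ± 0.0361 TPM with both factors and 15.2 ± 0.581 TPM with DLL4 (-2.85 ± 0.07, adjusted p = 3.2e-09). Of 38 other interferon-stimulated genes 0 rose and 9 fell, among them the chemokine gene Cxcl10, at 14.6 ± 1.68 TPM with both factors and 64.6 ± 3.18 TPM with DLL4. The 5 plasmacytoid dendritic cell markers summed to 31.9 to 35.1 TPM with both factors (Klk1 at 0) and 15.1 to 15.9 TPM with DLL4, Siglech being called higher, and their part was not tested.

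Desmosterol changed no member past the threshold. With desmosterol against no treatment 0 of 37 members were called by limma (background 0.244%), 15 had an unadjusted p under 0.05, and limma-voom called 0. Samd9l fitted -0.37 ± 0.07, adjusted p = 0.014 and Bst2 0.35 ± 0.06, adjusted p = 0.0099, both under 2-fold, among 1 member that passed the adjusted p upward and 6 downward. Added to DLL4 and TGF-beta it also gave 0 calls (background 0.205%), with 14 members at an unadjusted p under 0.05 and 0 calls by limma-voom, and 4 passed the adjusted p downward under 2-fold. Ifitm3 then averaged 24.7 ± 0.148 TPM with desmosterol and 35.5 ± 1.89 TPM without it (-0.50 ± 0.07, adjusted p = 0.0040).

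**Figure D3:**
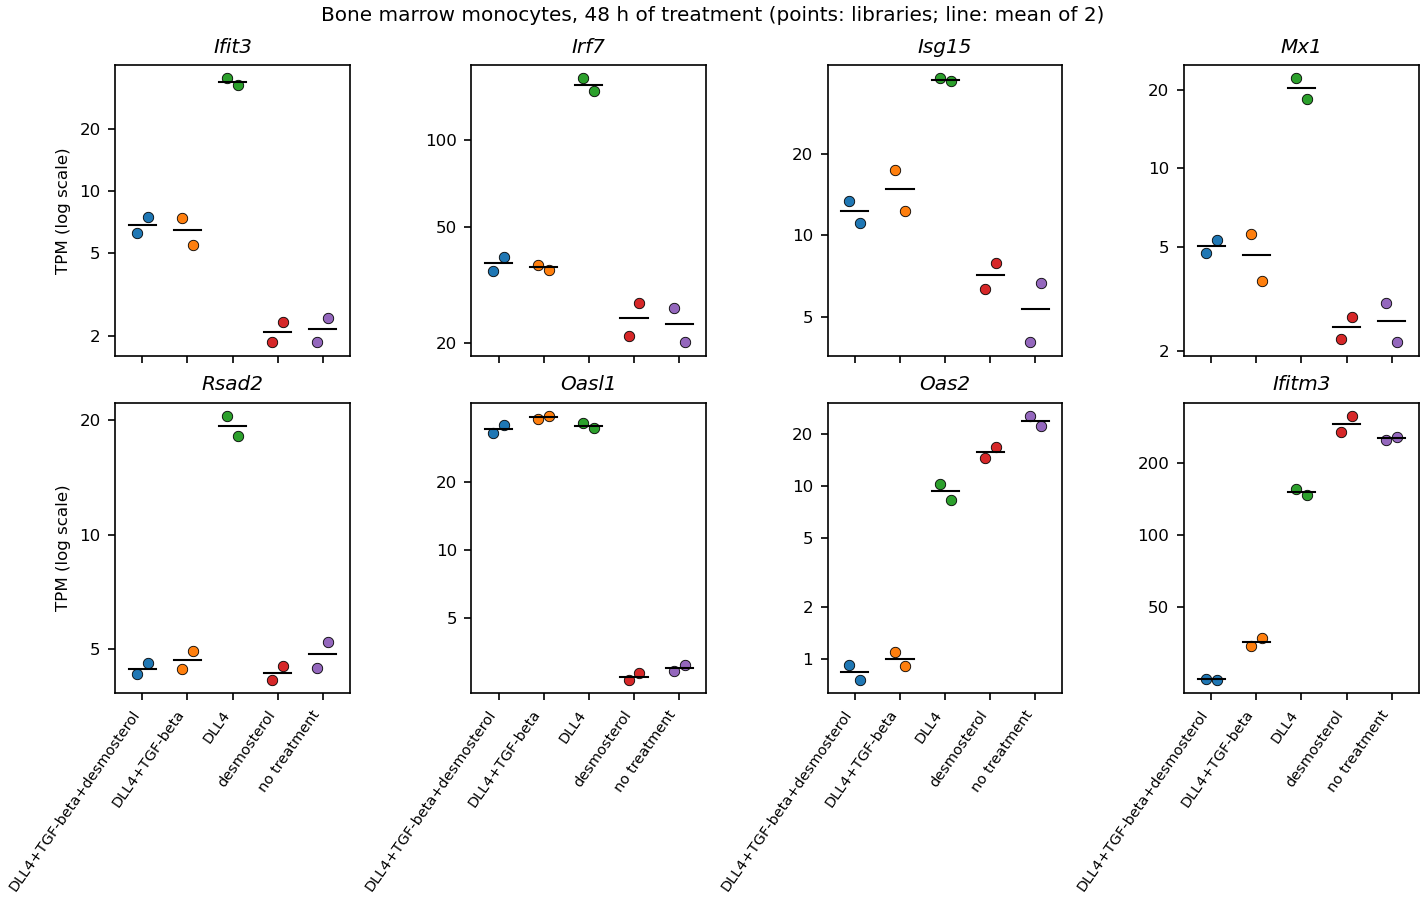
TPM on a log axis of 8 members in bone marrow monocytes after 48 h, with points for the 2 libraries of each treatment and a line at their mean. Ifit3, Irf7, Isg15, Mx1 and Rsad2 peak with DLL4, Oasl1 stays up with TGF-beta, and Oas2 and Ifitm3 are lowest with DLL4 and TGF-beta, with or without desmosterol.

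In Smad4 flox/flox control BMDMs the same factors lowered members of the set. With TGF-beta on top of DLL4, 0 of 35 tested members were higher and 7 lower in Smad4 flox/flox control BMDMs (background 6.66%), and the median log2 difference was -0.54 over the 39 genes and -0.00 over all 24940. The 7 were Ifitm3, Irf7, Rtp4, Oas2, Oas3, Cmpk2 and Oasl2. With TGF-beta alone against no treatment 0 were higher and 4 lower (4.17%), namely Ifitm3, Oasl1, Irf7 and Cmpk2, and with DLL4 alone 0 were higher and 2 lower (4.06%), Ifitm3 and Usp18. The count for TGF-beta was 2 without untreated replicate 1 and 1 without TGF-beta replicate 2, and the count for DLL4 was 4 without untreated replicate 2 and 5 without DLL4 replicate 1. With quantile normalization the count for TGF-beta was 2. The share of members called with DLL4 alone was close to its background.

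Ifitm3 was at 37.0 and 46.5 TPM with DLL4 and TGF-beta, 169.7 and 157 TPM with DLL4, 169 and 150.5 TPM with TGF-beta and 479.9 and 472 TPM without treatment in control BMDMs. Each factor lowered it (-1.54 ± 0.17, adjusted p = 8.1e-06 for DLL4 and -1.57 ± 0.17, adjusted p = 5.2e-06 for TGF-beta), and TGF-beta lowered it again on top of DLL4 (-1.95 ± 0.17, adjusted p = 4.1e-07). Irf7 was at 14.5 and 19.6 TPM with DLL4 and TGF-beta and 67.3 and 63.2 TPM with DLL4 (-1.89 ± 0.20, adjusted p = 3.4e-06). Usp18, the protease that removes ISG15 and dampens receptor signalling, averaged 3.69 ± 0.230 TPM with DLL4 and 10.4 ± 1.19 TPM without treatment (-1.28 ± 0.18, adjusted p = 8.3e-05). With TGF-beta on DLL4, 2 of 4 tested monocyte markers were lower, at a sum over all 5 of 163.8 to 171 TPM with both factors and 184 to 193 TPM with DLL4, and their part was not tested. Of 39 other interferon-stimulated genes 0 were higher and 4 lower in the same comparison.

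In Smad4 knockout BMDMs no member was called in response to TGF-beta. With TGF-beta on DLL4 0 of 35 members were called by limma (background 0.799%), 9 had an unadjusted p under 0.05, and limma-voom called 0. With TGF-beta alone 0 were called (0.545%), 6 had an unadjusted p under 0.05, and limma-voom called 0. Ifitm3 was at 93.5 and 154 TPM with DLL4 and TGF-beta and 180.1 and 178 TPM with DLL4 in knockout BMDMs (-0.57 ± 0.17, adjusted p = 0.049), and Irf7 at 32.5 and 55.1 TPM with both factors and 65.9 and 49.1 TPM with DLL4 (-0.42 ± 0.20, adjusted p = 0.23). Replicate 2 with both factors was the higher of its pair for all 35 tested members.

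The difference between genotypes was tested as an interaction. For TGF-beta on DLL4, a test added after both responses had been seen, 4 members were less lowered in knockout than in control BMDMs and 0 more lowered (background 2.23%): Irf7 (1.47 ± 0.28, adjusted p = 0.0030), Ifitm3 (1.38 ± 0.24, adjusted p = 0.0013), Rtp4 (1.16 ± 0.25, adjusted p = 0.0055) and Oas2 (1.00 ± 0.23, adjusted p = 0.0086). The count was 2 without control replicate 1 with both factors and 2 without knockout replicate 2 with both factors. For TGF-beta alone the interaction called 1 member higher and 0 lower (background 1.2%), Ifitm3 (1.14 ± 0.24, adjusted p = 0.0094), and 0 without knockout TGF-beta replicate 2. Ifitm3 with TGF-beta alone was at 344 and 402 TPM in knockout BMDMs and 169 and 150.5 TPM in control BMDMs. The 2 knockout libraries stood well above the 2 control libraries.

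DLL4 lowered Ifitm3 and Usp18 in both genotypes, a share of members near the background in each. In knockout BMDMs 0 members were higher and 2 lower with DLL4 (background 3.39%), again Usp18 (-1.54 ± 0.18, adjusted p = 1.6e-05) and Ifitm3 (-1.48 ± 0.17, adjusted p = 1.2e-05), and the interaction called 0 members and 0 genes (background 0.0%), with 0 members at an unadjusted p under 0.05 and 0 calls by limma-voom. Adding DAPT to DLL4 called 0 members in control BMDMs (background 2.09%; 13 at an unadjusted p under 0.05 and 0 by limma-voom) and 0 in knockout BMDMs (1.82%; 10 and 0). Ifitm3 averaged 255 ± 25.3 TPM with DAPT and 163 ± 8.86 TPM without it in control BMDMs (0.64 ± 0.17, adjusted p = 0.013), and 321 ± 11.4 TPM with and 179 ± 1.28 TPM without in knockout BMDMs (0.84 ± 0.17, adjusted p = 0.0022), both under 2-fold. Most members leaned the other way with DAPT. In control BMDMs 10 were above 0 and 25 below, and 2 passed the adjusted p upward and 5 downward. In knockout BMDMs 12 were above 0 and 23 below, and 3 passed it upward and 3 downward. Untreated knockout and control BMDMs differed in 0 members (background 1.13%), with 7 at an unadjusted p under 0.05 and 0 by limma-voom.

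**Figure D4:**
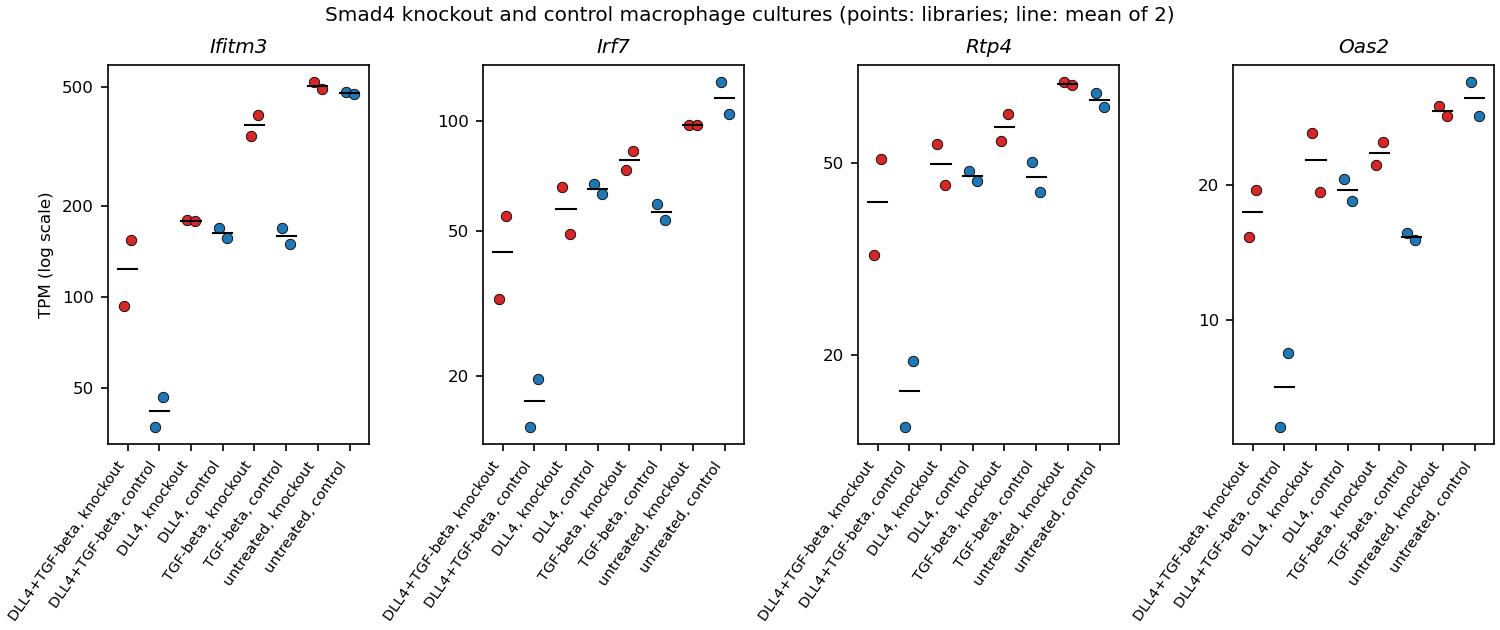
TPM on a log axis of Ifitm3, Irf7, Rtp4 and Oas2 in Smad4 knockout (red) and Smad4 flox/flox control (blue) BMDMs under 4 treatments, with points for 2 libraries and a line at their mean. With DLL4 and TGF-beta the knockout libraries stand above the control libraries for all 4 genes.

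The C57BL/6J BMDMs, from cultures with a lower level of the set, also lowered Ifitm3 with DLL4, but most members leaned upward at 24 h. With DLL4 24 were above 0 and 10 below at 24 h, and 6 passed the adjusted p upward and 4 downward. At 72 h 14 were above 0 and 20 below, and 1 passed it upward and 3 downward. In Smad4 flox/flox control BMDMs 0 passed it upward and 20 downward with DLL4. DLL4 lowered 1 of 34 tested members and raised 0 at 24 h (background 2.75%) and lowered 1 and raised 0 at 72 h (1.73%), Ifitm3 in both (-1.19 ± 0.11, adjusted p = 2.8e-06 at 24 h and -1.11 ± 0.11, adjusted p = 1.1e-05 at 72 h). TGF-beta on DLL4 raised 0 and lowered 3 at 24 h (background 3.8%), Ifitm3 (-2.10 ± 0.11, adjusted p = 8.4e-09), Irf7 (-1.17 ± 0.24, adjusted p = 0.0020) and Phf11b (-1.03 ± 0.24, adjusted p = 0.0043). At 72 h it raised 0 and lowered 6 (5.65%), Oas3 (-2.40), Rtp4 (-1.94), Oas2 (-1.74), Irf7 (-1.39), Phf11b (-1.03) and Ifit1 (-1.03), with adjusted p-values from 1.3e-09 to 0.0036. The 24 h count was 1 without replicate 2 with DLL4 and TGF-beta, and the 72 h count was 11 by limma-voom and 11 with quantile normalization. The 24 h count for DLL4 was 2 by limma-voom and with a pseudocount of 0.25. With 1 member called at each time, the shares for DLL4 were near those backgrounds.

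Ifitm3 was at 49.1 and 43.3 TPM with DLL4 and TGF-beta, 213 and 189 TPM with DLL4 and 436 and 484 TPM without treatment at 24 h. At 72 h it was at 102 and 78.9 TPM with DLL4 and TGF-beta and 97.1 and 95.5 TPM with DLL4, so that the groups overlapped, against 223 and 196 TPM without treatment. Untreated cultures changed with time as well: 4 members were higher and 1 lower at 72 h than at 24 h (background 13.8%), Rsad2 (2.06 ± 0.25, adjusted p = 7.7e-06), Ifit3 (1.74 ± 0.29, adjusted p = 1.4e-04), Ifit1 (1.31 ± 0.20, adjusted p = 8.3e-05) and Isg20 (1.19 ± 0.21, adjusted p = 2.4e-04) being higher and Ifitm3 lower (-1.13 ± 0.11, adjusted p = 9.0e-07). The share of members called was close to that background. Over all genes tested the median log2 difference between these times was -0.21, and quantile normalization, which removes such a shift, called 6 members higher and 1 lower. By limma-voom 8 were higher and 0 lower, so Ifitm3 was not called there.

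DMHCA alone raised members of the set in C57BL/6J BMDMs. After 24 h 16 of 34 tested members were higher and 0 lower with DMHCA than without treatment, where 5.43% of all genes were called, and the median log2 difference was 0.98 over the 39 genes and 0.00 over all 24940. All 3 IFIT genes, 3 of 4 tested OAS genes, 4 of 6 tested virus restriction genes and 2 of 3 ISG15 conjugation genes rose, against 0 of 3 tested immunity-related GTPases. The 8 largest increases were Ifit3, Rsad2, Rtp4, Usp18, Ifit1, Cmpk2, Isg15 and Oas2.

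Ifit3 was at 4.50 and 9.21 TPM in the DMHCA cultures, against 0.312 and 0.464 TPM in the untreated cultures (2.44 ± 0.29, adjusted p = 1.6e-05). Isg15 was at 18.7 and 24.0 TPM in the DMHCA cultures, against 3.59 and 6.91 TPM in the untreated cultures (1.88 ± 0.30, adjusted p = 2.0e-04), and Ifitm3 at 1219 and 1369.7 TPM in the DMHCA cultures, against 436 and 484 TPM in the untreated cultures (1.49 ± 0.11, adjusted p = 2.0e-07). The groups of these 3 genes did not overlap, and DMHCA replicate 2 was the higher of the pair for 33 of the 34 tested members. Irf7 averaged 30.7 ± 6.44 TPM with DMHCA and 10.1 ± 0.481 TPM without (1.50 ± 0.24, adjusted p = 2.1e-04), and Usp18 14.8 ± 5.63 TPM with and 2.36 ± 0.499 TPM without (2.19 ± 0.20, adjusted p = 1.7e-06). The other 8 raised members ranged from 1.01 (Dhx58) to 1.51 (Ifit2), and of the 6 genes with promoter stretches shown Ifitm3, Isg15, Ifit1, Ifit3 and Oas3 (1.04) rose. So did Irf7, Cmpk2, Ifit2 and Oasl2, chosen by the same calls, with no ISRE core in the windows searched. Ifi47, also with none there, was not called. Untreated cultures had 0.946 and 1.14 TPM of Ifit1 and 0.742 and 1.04 TPM of Rsad2, low levels at which few reads set the fold.

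On top of DLL4 and TGF-beta the compound lowered members. At 24 h 0 were higher and 2 lower (background 1.23%), Oasl2 (-1.22 ± 0.14, adjusted p = 4.3e-05) and Rtp4 (-1.16 ± 0.29, adjusted p = 0.013), and at 72 h 0 were higher and 7 lower (5.21%), Ifit2, Oasl2, Ifit3, Oas3, Isg15, Irf7 and Usp18, from -1.71 for Ifit2 to -1.04 for Usp18 with adjusted p-values up to 0.013. The 24 h count was 1 without replicate 1 and 4 without replicate 2 of DLL4 and TGF-beta, and 1 without replicate 2 with DMHCA, and it was 6 by limma-voom and with a pseudocount of 0.25. The 72 h count was 3 with quantile normalization and 12 with that pseudocount. Isg15 at 72 h was at 0.944 and 1.48 TPM in the cultures with DMHCA, against 2.23 and 5.70 TPM in the cultures without it, all low values with no overlap.

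The responses to DMHCA with and without DLL4 and TGF-beta at 24 h were compared by an interaction added after both had been seen. It called 0 members higher and 21 lower (background 6.55%), so the response was more negative with DLL4 and TGF-beta, and all 34 tested members had a negative interaction. The largest were Rtp4 (-3.43 ± 0.41, adjusted p = 3.1e-05), Ifit1 (-2.78 ± 0.29, adjusted p = 1.0e-05), Ifit3 (-2.67 ± 0.41, adjusted p = 2.5e-04), Oas2 (-2.62 ± 0.24, adjusted p = 3.3e-06), Oasl2 (-2.59 ± 0.19, adjusted p = 6.2e-07), Usp18 (-2.39 ± 0.28, adjusted p = 3.3e-05), Rsad2 (-2.28 ± 0.35, adjusted p = 2.7e-04) and Cmpk2 (-2.25 ± 0.28, adjusted p = 4.7e-05). Isg15 with DMHCA was at 3.52 and 3.09 TPM in the presence of DLL4 and TGF-beta and 18.7 and 24.0 TPM in their absence. Without DMHCA it was at 4.28 and 4.59 TPM with DLL4 and TGF-beta and 3.59 and 6.91 TPM without treatment. Only the cultures with DMHCA alone stood apart among these 4 groups for Isg15.

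Other genes moved with DMHCA alone. Of 26 signalling genes 1, Tlr9, was higher (1.42 ± 0.17, adjusted p = 1.4e-05) and 0 lower, and of 35 other interferon-stimulated genes 2 were higher, Cxcl10 (4.32 ± 0.24, adjusted p = 1.1e-08) and Uba7, and 1 lower, Ly6a. Ifnb1 was listed at 0 in every library of these cultures. Monocyte markers were lower, 4 of 5, at a sum of 34.1 to 36.6 TPM with DMHCA and 228 to 239 TPM without treatment. All 4 tested neutrophil markers were lower, at 144 to 153.02 TPM with DMHCA (Ly6g at 0) and 1128 to 1394 TPM without. With DLL4 and TGF-beta the monocyte sums were 150.4 to 160.5 TPM with DMHCA and 145 to 146 TPM without it, and at 72 h 3 of 5 monocyte and 4 of 4 tested neutrophil markers were lower with DMHCA. The part of these cells in the members' differences was not tested. Desmosterol and DMHCA were given to different cells, in different tables and for different times, so their values stand side by side without a comparison.

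**Figure D5:**
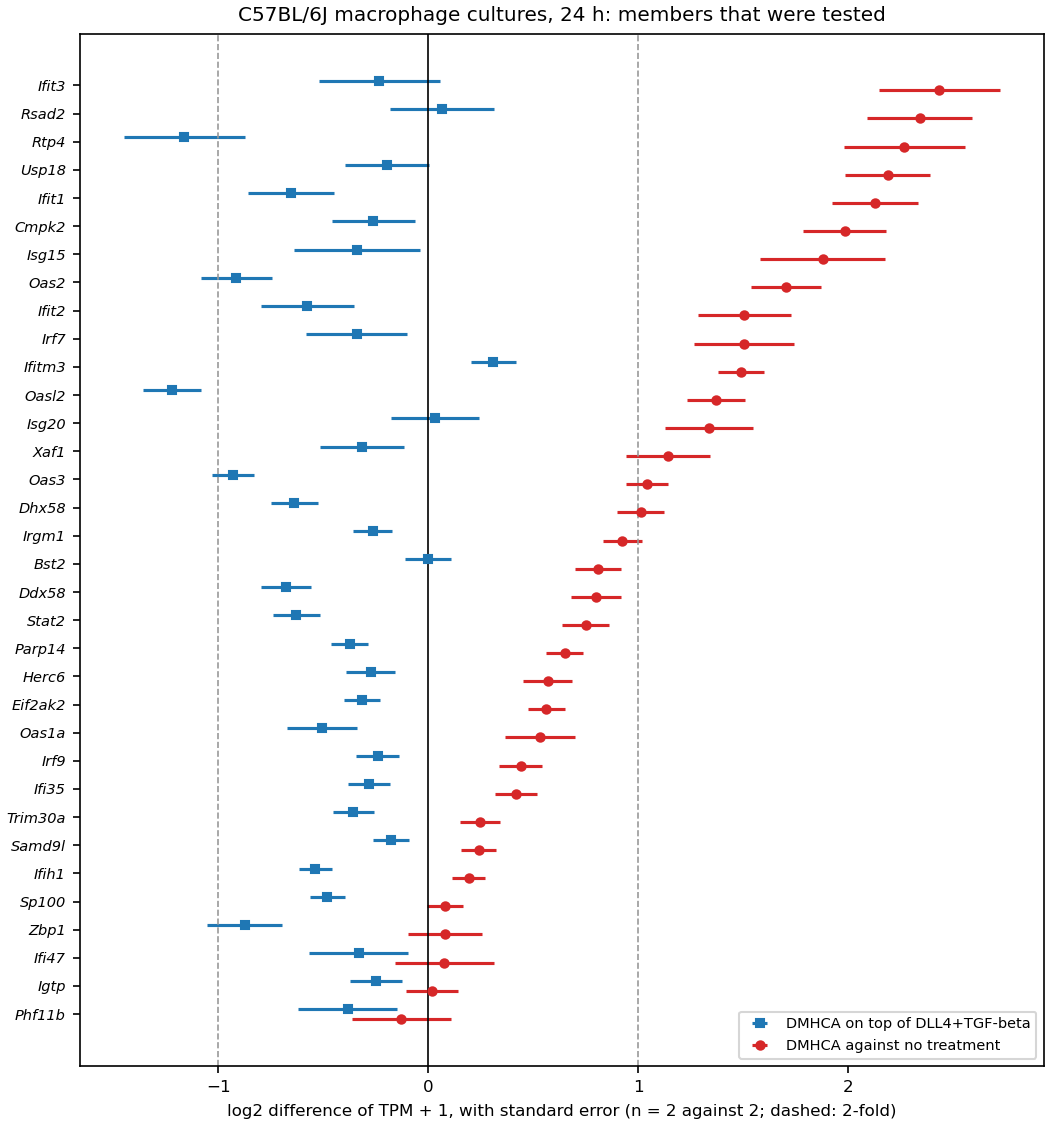
Log2 differences with standard errors for the 34 tested members in C57BL/6J BMDMs at 24 h, for DMHCA on top of DLL4 and TGF-beta (blue squares) and for DMHCA against no treatment (red circles). The red points reach 2.44 for Ifit3, while every blue point lies left of its red point.

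In Kupffer cells of mice with Smad4 deleted, no member was called. In TIM4-positive cells 0 of 37 tested members were called by limma (background 0.965%), 10 had an unadjusted p under 0.05, and limma-voom called 2. Ifitm3 was at 383, 261 and 398 TPM in the TIM4-positive knockout cells, against 796 and 853 TPM in the control Kupffer cells (-1.27 ± 0.24, adjusted p = 0.069), and Irf7 at 111, 74.3 and 125 TPM in the TIM4-positive knockout cells, against 225 and 194 TPM in the control Kupffer cells (-1.04 ± 0.26, adjusted p = 0.14). Neither gene's groups overlapped. In TIM4-negative cells 0 were called (1.62%), 6 had an unadjusted p under 0.05, and limma-voom called 0, and Ifitm3 was at 520.2 and 338 TPM (-0.97 ± 0.27, adjusted p = 0.14). The Kupffer cell markers summed to 7679 to 10428 TPM in TIM4-positive and 3610.3 to 5399 TPM in TIM4-negative knockout cells, against 15074 to 15551 TPM in control cells, with no marker at 0, and their part was not tested.

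Libraries labelled Nr1h3 knockout gave 1 call in the set. In TIM4-positive cells 0 of 39 members were called (background 2.86%), with 3 at an unadjusted p under 0.05 and 0 by limma-voom, but 2 without control replicate 2. In TIM4-negative cells 1 was higher and 0 lower (4.16%), Ifi44, at 28.0 and 29.1 TPM in the TIM4-negative cells labelled knockout, against 19.6 and 8.83 TPM in the control cells (1.05 ± 0.28, adjusted p = 0.023). That count was 3 without control replicate 1 and 0 without control replicate 2 or either TIM4-negative replicate, and also 0 by limma-voom. Ifi44 was at 12.4 and 11.3 TPM in the TIM4-positive cells labelled knockout. The control cells were TIM4-positive by their titles, so genotype label and TIM4 fraction cannot be told apart in the TIM4-negative comparison. In Nr1h3 knockout BMDMs 0 were called (background 0.417%), with 6 at an unadjusted p under 0.05 and 0 by limma-voom.

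Ifitm3 was the member that passed the adjusted p in all 3 of these comparisons while staying under 2-fold. It was at 614 and 713 TPM in TIM4-positive and 677 and 742 TPM in TIM4-negative cells labelled knockout, against 1330.5 and 977 TPM in control cells (-0.78 ± 0.14, adjusted p = 0.0053 and -0.68 ± 0.14, adjusted p = 0.0070). In BMDMs it was at 711 and 638 TPM in the knockout and 1084 and 1111 TPM in the wild type (-0.70 ± 0.14, adjusted p = 0.044). The groups did not overlap in any of the 3. The 2 Kupffer cell comparisons share their control libraries, of which replicate 1 was the higher for every member. The 6 Kupffer cell markers summed to 7429 to 8065 TPM in TIM4-positive and 5099 to 5253 TPM in TIM4-negative cells labelled knockout, against 16455 to 16488 TPM in control cells, with 2 and 4 of them called lower, and their part was not tested.

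No member changed by 2-fold or more after Notch signals were blocked in the emptied liver, but many passed the adjusted p with smaller differences. With LY411575 0 of 39 members were called against its control (background 6.38%), 22 had an unadjusted p under 0.05, limma-voom called 0, and 1 was called without control replicate 2. Under 2-fold, 14 members passed the adjusted p upward and 3 downward. With antibodies to DLL1 and DLL4 0 were called (2.07%), 18 had an unadjusted p under 0.05, and limma-voom called 0. Here 12 passed the adjusted p upward and 0 downward, all under 2-fold. Irf7 was at 263, 268 and 251 TPM in the LY411575 libraries, against 433 and 441 TPM in the controls (-0.74 ± 0.08, adjusted p = 3.4e-05), and Bst2 at 165.7, 151.5 and 157 TPM in the LY411575 libraries, against 275 and 239 TPM in the controls (-0.70 ± 0.07, adjusted p = 2.6e-05). Both were lower in every LY411575 library, while Ifit1 was higher in each, at 36.0, 36.1 and 36.6 TPM with LY411575 and 17.4 and 22.5 TPM in controls (0.84 ± 0.12, adjusted p = 4.5e-04).

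With the antibodies Irf7 was at 295, 329.8, 358 and 298 TPM, against 292 and 288 TPM in controls (0.14 ± 0.07, adjusted p = 0.26), and Rsad2 at 57.6, 65.9, 55.7 and 51.2 TPM, against 37.2 and 33.8 TPM in controls (0.68 ± 0.10, adjusted p = 0.0011). Every antibody library was above both controls for each of the 2 genes. Rsad2 with LY411575 averaged 69.8 ± 4.76 TPM, against 44.7 ± 1.03 TPM in its controls (0.63 ± 0.10, adjusted p = 8.0e-04). The interaction between the 2 blockades called 0 members (background 5.38%), with 8 at an unadjusted p under 0.05 and 0 by limma-voom, and 1 without LY411575 control replicate 2 or antibody control replicate 2. Bst2 (-0.95 ± 0.10, adjusted p = 1.1e-04), Irf7 (-0.88 ± 0.11, adjusted p = 3.4e-04) and Ifit3 (-0.55 ± 0.15, adjusted p = 0.038) passed the adjusted p there under 2-fold. The sexes of the mice differ between the blockades and cannot be told apart from them. Monocyte markers summed to 1700.5 to 1819.8 TPM with LY411575 and 974 to 984 TPM in its controls, 3 of 5 being called higher. Hepatocyte markers summed to 342 to 1286 TPM with the antibodies and 1331 to 3057 TPM in their controls, 2 of 4 being called lower, and the part of either list was not tested.

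Among the STAB2-sorted liver cells, 1 of 37 tested members was higher and 2 lower in STAB2-low than in STAB2-high cells (background 13.6%). Rsad2 was at 17.8 and 17.8 TPM in the STAB2-low cells, against 71.3 and 63.0 TPM in the STAB2-high cells (-1.86 ± 0.11, adjusted p = 1.1e-04), with both low libraries far below both high ones. The fractions share 2 library numbers, and for 14 of the 37 members the same number was the higher of its pair in all 3 fractions; with that number as a block the 3 calls stayed. Ifit2 averaged 16.8 ± 0.818 TPM in STAB2-low and 40.3 ± 3.56 TPM in STAB2-high cells (-1.22 ± 0.13, adjusted p = 0.0011), and Igtp, a GTPase, 64.3 ± 22.7 TPM in STAB2-low and 27.4 ± 0.185 TPM in STAB2-high cells (1.16 ± 0.23, adjusted p = 0.011). STAB2-intermediate and STAB2-high cells differed in 0 members by limma (background 0.00946%), with 4 at an unadjusted p under 0.05 and 0 by limma-voom. Mx1 was at 0.549 and 0.465 TPM in STAB2-low, 0.367 and 0.862 TPM in STAB2-intermediate and 0.881 and 0.377 TPM in STAB2-high cells. The 5 macrophage markers summed to 136 to 141 TPM in STAB2-low and 328 to 361 TPM in STAB2-high cells, below the sums of the sinusoidal endothelium markers. Of macrophage genes, Mertk was called lower (-1.62), while Adgre1 (0.08), Cd68 (0.01), Lyz2 (-0.38) and Csf1r (-0.49) were not called. Sinusoidal endothelium markers summed to 2557 to 2821 TPM in STAB2-low and 8131 to 8864 TPM in STAB2-high cells, 4 of 5 being lower (Stab2, on which the cells were sorted, Lyve1, Clec4g and Kdr) and Pecam1 higher (1.14 ± 0.10, adjusted p = 4.7e-04), hepatocyte markers summed to 34.8 to 41.9 TPM in STAB2-low and 163.7 to 171 TPM in STAB2-high cells, and no marker of either list was at 0; their part was not tested.

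Over the 39 comparisons between groups, which share control libraries in part, Ifitm3 and Irf7 were called most often. Ifitm3 was called in 11, higher in 1 (DMHCA alone) and lower in 10, and Irf7 in 11, higher in 4 and lower in 7. Isg15 was called in 10 (7 higher and 3 lower), Ifi44 in 8 (6 and 2) and Ifit1 in 8 (4 and 4). Oas1a, Parp14 and Xaf1 were called in 1 comparison each. Several members have close paralogs, such as Ifit3 with Ifit3b and Oas1a with its Oas1 neighbours, and reads could be shared between them.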

How the data were processed

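RNA-seq libraries of mouse liver macrophages, blood monocytes, sorted liver cells and cultured bone marrow cells were made from polyA RNA with strand-specific dUTP marking, per the labels' protocols. Per the submitters' processing notes STAR and HOMER were used with the mm10 build; for their versions, the sources used here give none. The authors deposited 8 tables of TPM (abundance scaled for length and depth), with 24940 genes each and 1 isoform per gene. Per the header of 1 file, exon reads were counted and genes condensed, so reads shared by close paralogs may be split between them.

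The TPM steps of low genes gave back whole reads for 99.47 to 100% of low values within 0.1 read, or 7830297 to 27776806 reads per library. Groups were taken from GEO's labels. Among 69 replicate pairs 0 were identical. Each table was fitted separately with limma 3.58.1 in R 4.3.3 on log2(TPM + 1), over genes at 4 TPM or more in at least 2 libraries, with Benjamini-Hochberg adjustment over all genes tested. Calls needed an adjusted p below 0.05 and a 2-fold change. Interactions were tested in the same models. Simulated data were used to test the scripts. Tables were read with Python 3.11.15 (pandas 2.3.3, numpy 2.4.6) and drawn with matplotlib 3.10.9. Alternatives were quantile normalization, limma-voom on recovered reads, a pseudocount of 0.25, dropping the expression filter, the replicate number as a block, and leaving out each library. The share of genes called in each comparison is the background.

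The 39 members, the gene lists and the tests were chosen with earlier results of these data known. Up to 8 called members per direction and comparison were named by size, 12 members (Isg15, Irf7, Stat2, Ifit1, Ifit3, Mx1, Oas1a, Rsad2, Usp18, Bst2, Ifitm3 and Irgm1) could be named anywhere, and where 5 or fewer were called all were named. Libraries were not paired by their numbers, since no label says what a shared number marks; a fit with the number as a block was an alternative. Promoters came from RefSeq on GRCm38.p6, and a member without an entry there is named only.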

Additional observations from a re-analysis of the deposited data

Results flagged for a closer look

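In the antibody-treated liver macrophages, 1 library stood apart for each of 2 members. Ifitm3 was at 1425 TPM in library 4, against 1338 to 1351 TPM in the other 3, a gap of 0.856 of the group's range, and Samd9l was at 42.9 TPM in library 1, against 53.1 to 53.9 TPM in the others, a gap of 0.925. Both gaps pass Dixon's 95% critical value for 4 libraries. Of 75 sets of 4 libraries examined these 2 passed it, and chance alone passes about 1 in 20.

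Responses that differed by an interaction fitted across all genes were found in 3 tests. The response of Ifitm3 to TGF-beta differed by 1.14 on the log2 scale between Smad4 knockout and control BMDMs. The response to TGF-beta on top of DLL4 differed, knockout minus control, by 1.38 for Ifitm3, 1.47 for Irf7, 1.00 for Oas2 and 1.16 for Rtp4. The response to DMHCA at 24 h with DLL4 and TGF-beta minus that without them was -3.43 for Rtp4, -2.78 for Ifit1, -2.67 for Ifit3, -2.62 for Oas2, -2.59 for Oasl2, -2.39 for Usp18, -2.28 for Rsad2, -2.25 for Cmpk2, -2.22 for Isg15, -2.08 for Ifit2, -1.97 for Oas3, -1.85 for Irf7, -1.65 for Dhx58, -1.48 for Ddx58, -1.46 for Xaf1, -1.38 for Stat2, -1.30 for Isg20, -1.19 for Irgm1, -1.18 for Ifitm3, -1.04 for Oas1a and -1.02 for Parp14. The last 2 tests were added after the responses had been seen. In the DMHCA test the 5 monocyte markers moved too, 4 of them with a positive interaction and 0 with a negative one, as did the 4 tested neutrophil markers, all positive, and the part of these cells was not tested.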

How the results depend on the processing

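Of 44 counts of called members, 38 stayed within 1.5 times under limma-voom on recovered reads, 43 without the expression filter, 41 with a pseudocount of 0.25 and 40 with quantile normalization, as did 192 of 217 refits that left out a library, and no called member reversed. Limma-voom called 2 members in TIM4-positive Smad4 knockout Kupffer cells, 2 for DLL4 and 6 for DMHCA on DLL4 and TGF-beta at 24 h, 11 for TGF-beta on DLL4 at 72 h, 8 in untreated BMDMs at 72 h against 24 h, and 0 in TIM4-negative cells labelled Nr1h3 knockout. That last count was also 0 without the filter and with quantile normalization. A pseudocount of 0.25 gave 2 for DLL4 and 6 for DMHCA on both factors at 24 h and 12 for DMHCA on both factors at 72 h, where members are low. Quantile normalization gave 2 for TGF-beta in control BMDMs, 11 for TGF-beta on DLL4 at 72 h and 3 for DMHCA on both factors at 72 h. The cause of these shifts was not tested. Leaving out a library in turn gave counts of 4 to 7 for 24 h liver macrophages against Kupffer cells, 3 to 5 for those at 48 h, 2 to 5 for those at 72 h, 1 to 2 for those at 168 h, 0 to 2 for TIM4-positive cells labelled Nr1h3 knockout, 0 to 3 for TIM4-negative cells so labelled, 1 to 6 for TGF-beta in control BMDMs, 2 to 5 for DLL4 in control BMDMs, 0 to 1 for the TGF-beta interaction with Smad4, 2 to 6 for that for TGF-beta on DLL4, 1 to 4 for TGF-beta on DLL4 at 24 h, 1 to 4 for DMHCA on both factors at 24 h, 0 to 1 for LY411575, 0 to 1 for the interaction of the Notch blockades. In single members, 88 of 1068 refits without a library lost the call, as did 31 of 209 values with quantile normalization, 13 with limma-voom, 2 without the filter and 1 with the other pseudocount. No label says that a shared replicate number marks 1 animal or culture, so the fits did not pair libraries. Over 29 comparisons the correlation of same-numbered deviations ranged from -0.26 to 0.14 (median 0.01). With the replicate number as a block, 34 counts stayed within 1.5 times, for example 21 for DLL4 and 22 for TGF-beta on DLL4 in bone marrow monocytes, 16 for DMHCA alone and 7 for TGF-beta on DLL4 in control BMDMs, and 149 of 149 member calls were kept. For the STAB2 fractions, whose titles share 2 numbers, the block gave 3 for STAB2-low and 0 for STAB2-intermediate against STAB2-high cells. Most groups have 2 libraries, and members under about 1 TPM rest on few reads.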
